A study of Mus musculus with 7 samples.

Results

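The BCL2 family genes described here are 10 genes that set whether a cell survives or dies through its mitochondria, and they were chosen by name as rows of a table of 15967 genes, in which all 10 were found. The table compares the sinoatrial node, the pacemaker tissue of the heart, between a library from Sv129 mice of genotype Baf250af/f;Hcn4CreERT2, taken 6 days after tamoxifen (the Cre library), and a day-6 control library from Sv129 mice of genotype Baf250af/f without Cre. Mice of both groups carried floxed alleles of Baf250a (symbol Arid1a), which encodes a BAF chromatin remodelling subunit, and were 3 weeks old. CreERT2 is a recombinase that tamoxifen activates, and here it is driven from Hcn4, a gene of pacemaker cells, so that deletion is directed to those cells while the RNA came from the whole dissected tissue. The labels leave unsaid the number and sex of the mice behind a library and whether control mice received tamoxifen. With 1 library per genotype, differences have no replicate check, and genotype could not be tested. For the same reason, p-values and q-values quoted below from the authors' deposited table hold no spread between libraries of a genotype. The 5 libraries of the earlier time series were not analysed here.

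Proteins of this family meet at the outer membrane of mitochondria. The effectors Bax and Bak1 can open that membrane, which lets cytochrome c out and starts the caspases. The survival proteins Bcl2, Bcl2l1 (also called Bcl-xL), Bcl2l2 (Bcl-w) and Mcl1 hold the effectors back, and the BH3-only proteins Bad, Bid, Bcl2l11 (Bim) and Bbc3 (Puma) sense stress and either bind the survival proteins or push the effectors. In the thymus Bcl2l1 is known for keeping immature T cells alive and Bcl2l11 for removing self-reactive ones. In heart muscle of mice Mcl1 is known to be needed for survival of the cells.

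Levels are taken to be FPKM (the files do not name the unit, and it was inferred from their Cufflinks column layout), fragments per kilobase of transcript and per depth of mapped fragments, which can be compared between genes since they are per length. FPKM summed to 485189 in the Cre library and 497407 in the control library, and the read depth behind them is unknown. A ratio is the log2 of (FPKM + 1) in the Cre library over (FPKM + 1) in the control library, which understates the differences of weakly expressed genes, and a gene is called higher or lower when it differs at least 2-fold on that scale. Ratios were taken over 13408 genes whose mean reached 1 FPKM, and all 10 family genes passed that minimum.

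Before the family, some facts of the libraries bear on every value below. Arid1a, the floxed gene, had 12.3 FPKM in the Cre library, against 34.9 FPKM in the control library. All 20 T cell and thymocyte markers were lower, with a summed level of 21.8 FPKM in the Cre library (0.0116 to 6.12 FPKM per gene), against 3612 FPKM in the control library (9.88 to 436 FPKM), and all 15 cell cycle genes were lower, with summed levels of 121 and 1009 FPKM in the Cre and control libraries. Working cardiomyocyte markers were called higher in 8 of 13 genes and lung and airway markers in 9 of 10, with summed levels of 18651 FPKM in the Cre library and 4201 FPKM in the control library for the lung and airway list. Over all genes measured, 6.08% were called higher and 10.4% lower. Pacemaker markers were weak in both libraries, from 0.719 to 10.5 FPKM in the Cre library and from 0.605 to 10.9 FPKM in the control library, with Hcn4 itself the lowest in both. Xist had 93.2 FPKM in the Cre library and 0.379 FPKM in the control library, and the Y-linked Eif2s3y 0.118 FPKM in the Cre library and 85.8 FPKM in the control library, so the libraries also differ in the sex these genes mark. None of the markers with a completed comparison was at 0 in either library. The authors mark the comparison of Myh6, a working cardiomyocyte marker, as not completed, and Myh6 was left out of the counts and sums above. The part of these differences in the values of the BCL2 family was not tested, and in bulk tissue fewer cells of a type and less RNA per cell cannot be told apart.

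Transcripts of the family were less abundant in the Cre library in 9 of the 10 genes, in survival, effector and BH3-only genes alike. Bid and Bcl2l1 were the genes called lower, Bcl2l2 was the gene with more transcript in the Cre library, and Bad was nearly level. The summed level of the 10 genes was 148 FPKM in the Cre library and 252 FPKM in the control library, so the Cre library held 58.8% of the control level. The 2 genes called lower stand against a background of 10.4% of all genes measured, and the 0 called higher against 6.08%. The median ratio of the 10 genes was -0.86, beside -0.07 for all 13408 genes, of which 54.0% lay below 0. Scaled to a common upper quartile, the median of all genes became 0.14 and that of the family -0.65, with 8 of the 10 genes below 0 because Bad moved to 0.19. The authors' deposited table called none of the 10 genes significant, against 90 calls (0.564%) over 15965 genes.

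**Figure D1:**
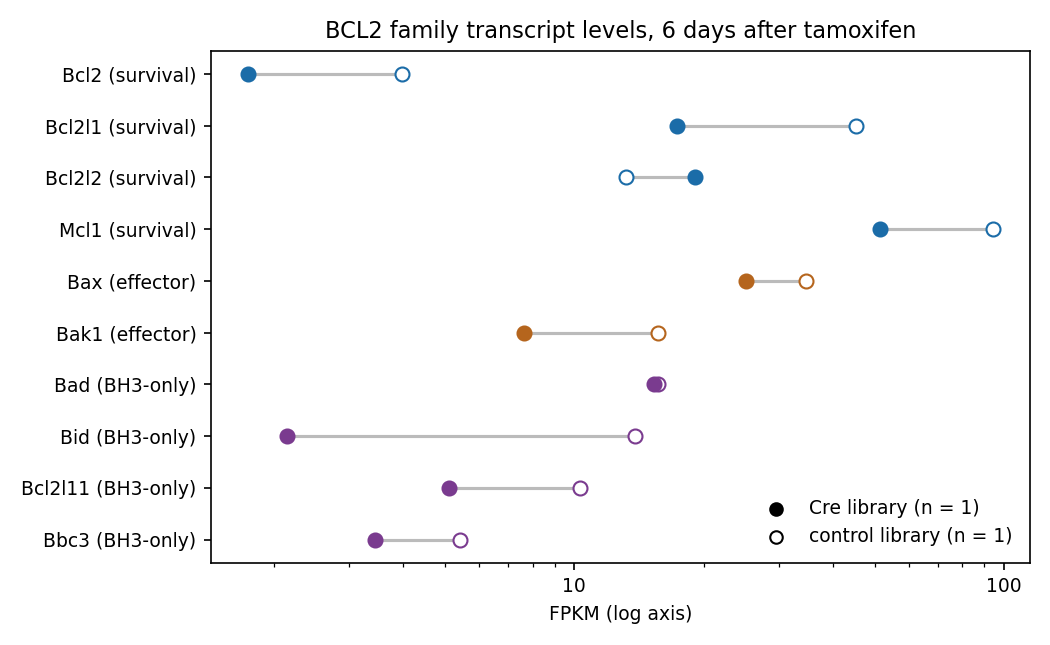
FPKM on a log axis (horizontal) of the 10 genes (vertical, with their role) in the Cre library (filled) and the control library (open), with 1 library per genotype. The filled point lies left of the open point in 9 genes, furthest in Bid (2.15 and 13.8 FPKM in the Cre and control libraries), and to the right of it in Bcl2l2.

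The genes lie apart from each other, on chromosomes 1, 2, 3, 6, 7, 14, 17 and 19. In mm9, the build of the files, Bid (NM_007544) spans chr6:120843136-120866838, Bcl2l1 (NM_009743) chr2:152606403-152657418 and Bcl2l2 (NM_007537) chr14:55502261-55507071. Mcl1 spans chr3:95462642-95467101, Bcl2 chr1:108434755-108610867, Bax chr7:52717064-52722268 and Bak1 chr17:27156756-27165571. Bad lies at chr19:7012559-7026383, Bcl2l11 at chr2:127951773-127988283 and Bbc3 at chr7:16894931-16903683. Their listed transcripts run in GENCODE from 867 bases for Bax to 7191 bases for Bcl2. Each gene has a single value per library, so long and short products of Bcl2l1 or Bcl2l11 cannot be told apart.

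Among the survival genes, Mcl1, a short-lived protein that blocks Bak1 in particular, was the most abundant of all 10 genes in both libraries. It had 51.3 FPKM in the Cre library, against 94.0 FPKM in the control library, with a log2 ratio of -0.86 that was short of the 2-fold rule. Of all genes, 91.1% had a lower level than Mcl1 in the Cre library and 94.8% in the control library.

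Bcl2l1, which binds both effectors and most BH3-only proteins, was called lower. It had 17.3 FPKM in the Cre library, against 45.3 FPKM in the control library, with a log2 ratio of -1.34, and 6.996% of the genes measured had a lower ratio. The Cre library held 38.2% of the control level, the smallest share among the survival genes. By level it was number 4 of the 10 genes in the Cre library and number 2 in the control library. Its p-value in the authors' deposited table was 0.0939 and its q-value 0.997.

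Bcl2, the founding member of the family, was the least abundant of the 10 genes in both libraries. It had 1.74 FPKM in the Cre library and 3.98 FPKM in the control library, with a log2 ratio of -0.86. Its pseudocount matters at this level: the authors' deposited table gives a log2 fold change of -1.19 without one, with a p-value of 0.217. An antisense gene, D630008O14Rik, overlaps its exons in the GENCODE annotation.

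Bcl2l2, whose loss in mice is known for a failure of sperm formation, was the one survival gene with more transcript in the Cre library. It had 19.1 FPKM in the Cre library, against 13.2 FPKM in the control library, with a log2 ratio of 0.51 that was not called, and 80.4% of the genes measured had a lower ratio. With ratios centred on fibroblast and endothelial markers Bcl2l2 was nearly level, at 0.05. By level Bcl2l2 was number 3 of the 10 genes in the Cre library and number 7 in the control library. The GENCODE annotation places a read-through gene, Gm20521, over its exons on the same strand, so its reads may be shared. Pabpn1, the gene that lies next downstream, had 50.9 FPKM in the Cre library and 75.6 FPKM in the control library, a difference the other way.

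The survival transcripts were also made up differently in the 2 libraries. Bcl2l2 made up 21.4% of the summed survival FPKM in the Cre library and 8.43% in the control library, while Bcl2l1 made up 19.4% in the Cre library and 29.0% in the control library. Bcl2l1 was thus at 0.905 times the level of Bcl2l2 in the Cre library and at 3.44 times that level in the control library. Mcl1 kept the largest share in both, 57.3% in the Cre library and 60.1% in the control library. The median log2 ratio of the 4 survival genes was -0.86, with 3 of 4 below 0 and 1 called lower. Over all genes the median was -0.07, with 54.0% below 0 and 10.4% called lower.

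**Figure D2:**
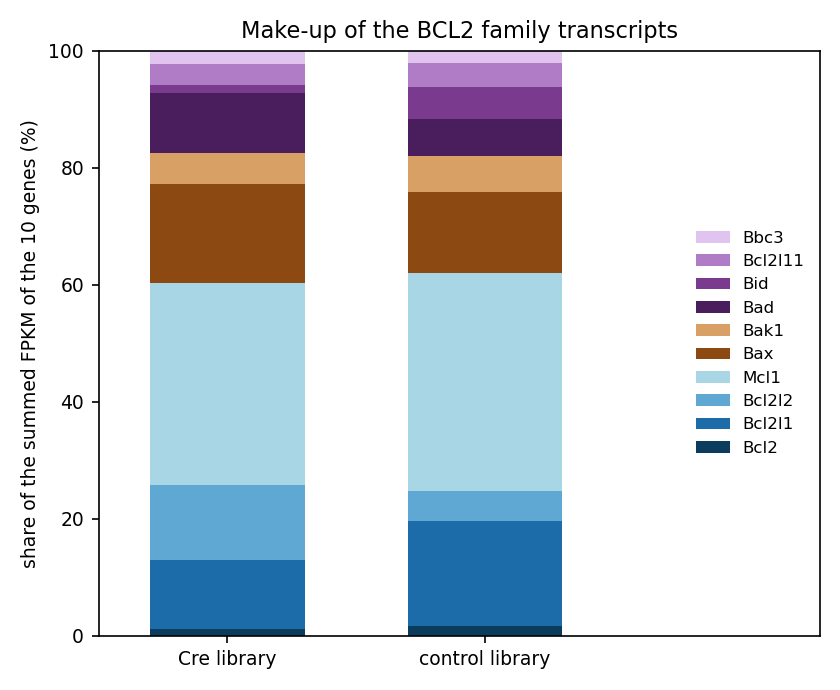
Share of the summed FPKM of the 10 genes (vertical, percent) taken by each gene in the Cre library (left) and the control library (right), 1 library each, with survival genes in blue, effectors in brown and BH3-only genes in purple. The survival genes took 60.4% of the sum in the Cre library and 62.1% in the control library, and within them the Bcl2l2 band was wider in the Cre library.

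The effectors were both less abundant in the Cre library, and neither was called, beside 54.0% of all genes below 0 and 10.4% called lower. Bax, which moves from the cytosol into the mitochondrial membrane when a cell is told to die, had 25.1 FPKM in the Cre library, against 34.7 FPKM in the control library, with a log2 ratio of -0.45. The gene model Gm45808 overlaps its exons on the same strand in GENCODE, so reads of Bax may be shared. Bak1, which sits in that membrane at all times, had 7.63 FPKM in the Cre library, against 15.6 FPKM in the control library, with a log2 ratio of -0.95. Without a pseudocount, Bak1 passed the rule, at -1.04 in the authors' deposited table with a p-value of 0.256. Bax was the more abundant effector in both libraries, at 3.29 times the level of Bak1 in the Cre library and 2.22 times in the control library. Exons of Bak1 overlap those of Ggnbp1 on the other strand in the GENCODE annotation, and strand use in the counting is not given in the sources used here, so reads of these genes may be mixed. Ggnbp1 had 6.80 FPKM in the Cre library and 2.25 FPKM in the control library.

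BH3-only genes held both the ratio furthest from 0 and the ratio nearest to 0 among the 10 genes. Bid, which caspase 8 cuts to carry a death receptor signal to mitochondria, had 2.15 FPKM in the Cre library, against 13.8 FPKM in the control library. The log2 ratio was -2.24, the Cre library held 15.5% of the control level, and 3.24% of the genes measured had a lower ratio. By level Bid was number 9 of the 10 genes in the Cre library and number 6 in the control library. A log2 fold change of -2.69 stands in the authors' deposited table, with a p-value of 0.0184 and a q of 0.483. Exons of Bid overlap those of Bcl2l13, another family gene on the other strand, so their reads may be mixed. Bcl2l13 had 14.1 FPKM in the Cre library and 13.8 FPKM in the control library.

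Bad, which survival signals hold inactive by phosphorylation, was nearly level. It had 15.3 FPKM in the Cre library and 15.7 FPKM in the control library, with a log2 ratio of -0.03 that became 0.00 in TPM. Bad shares its listed locus with Gpr137, a gene on the other strand that had 17.2 FPKM in the Cre library and 11.4 FPKM in the control library, so their reads may be mixed. Bad was at 7.15 times the level of Bid in the Cre library and 1.13 times in the control library.

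Bcl2l11, which binds all of the survival proteins, had 5.11 FPKM in the Cre library, against 10.3 FPKM in the control library. The log2 ratio was -0.89, and -1.01 in the authors' deposited table, where the p-value was 0.240. Bbc3, a target of p53, had 3.44 FPKM in the Cre library and 5.42 FPKM in the control library, with a log2 ratio of -0.53. The median of the 4 BH3-only genes was -0.71, with 4 of 4 below 0 and 1 called lower. Beside this stand 54.0% of all genes below 0 and 10.4% called lower.

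Set against each other, the groups had summed levels of 89.5, 32.7 and 26.0 FPKM for survival, effector and BH3-only genes in the Cre library and 156, 50.3 and 45.2 FPKM in the control library. The survival sum was 2.74 times the effector sum in the Cre library and 3.11 times in the control library. It was 3.44 times the BH3-only sum in the Cre library and 3.46 times in the control library. The Cre library held 57.2% of the control level of the survival genes, 65.1% of the effectors and 57.6% of the BH3-only genes. With 1 library each, it cannot be said whether these proportions differ.

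Start regions are shown for the genes with the outermost ratios, Bid and Bcl2l1 on the lower side and Bcl2l2 on the upper side, so that the letters in front of them can be compared. The sequences are RefSeq, build GRCm38.p6, and run 5′ to 3′ on the strand of the gene from 250 to 51 bases before the start, in a window of 200 bases that holds no GENCODE exon. Capitals mark the GC box, GGGCGG on either strand, a motif bound by Sp1 factors. Bid is shown at chr6:120916875-120917074 (minus strand), Bcl2l1 at chr2:152831779-152831978 (minus strand, the outermost of 3 listed starts) and Bcl2l2 at chr14:54883175-54883374 (plus strand).
Bid: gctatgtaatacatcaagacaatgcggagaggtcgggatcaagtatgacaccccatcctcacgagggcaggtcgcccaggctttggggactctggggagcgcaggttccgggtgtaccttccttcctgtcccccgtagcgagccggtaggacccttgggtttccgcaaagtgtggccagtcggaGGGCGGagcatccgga
Bcl2l1: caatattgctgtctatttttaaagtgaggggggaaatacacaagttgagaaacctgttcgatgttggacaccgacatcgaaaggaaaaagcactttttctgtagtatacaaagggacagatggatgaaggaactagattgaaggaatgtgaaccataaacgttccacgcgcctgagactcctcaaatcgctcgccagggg
Bcl2l2: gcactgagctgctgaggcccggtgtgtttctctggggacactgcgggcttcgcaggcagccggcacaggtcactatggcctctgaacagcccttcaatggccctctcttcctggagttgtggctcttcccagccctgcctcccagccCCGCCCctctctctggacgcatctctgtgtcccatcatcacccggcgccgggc
The windows of Bid and Bcl2l2 each hold 1 GC box and that of Bcl2l1 holds 0. The 10 genes have 16 listed starts, and 10 of these windows, from 7 of the genes, hold a GC box, beside 24.6% of all 32851 windows in the RefSeq table. None of the 16 holds a TATA box (TATAAA on either strand), beside 9.14% of all windows. These matches describe letters and not binding, and genes with several starts count several times.

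The family members outside the 10 were followed through a list of 15 genes, of which 14 were in the table and 10 passed the minimum. None was called in either direction, beside 10.4% of all genes called lower and 6.08% higher. Of the 10, 7 lay below 0, and the median log2 ratio was -0.54. Lower calls numbered 3 with a pseudocount of 0.1, 4 without a pseudocount, 2 in TPM and 5 with ratios centred on fibroblast and endothelial markers. Those settings called 12.6%, 12.9%, 10.7% and 23.9% of all genes lower, in that order. Bmf, a BH3-only protein held on the cytoskeleton, had 6.78 FPKM in the Cre library, against 13.7 FPKM in the control library. Pmaip1 (Noxa), a BH3-only partner of Mcl1, had 0.551 FPKM in the Cre library and 1.68 FPKM in the control library. Bik, a BH3-only protein of the endoplasmic reticulum, had 6.20 FPKM in the Cre library and 6.31 FPKM in the control library, and Hrk was at 0.214 and 0.0573 FPKM in the Cre and control libraries, too weak for a ratio.

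Bok, an effector-like protein, was like Bcl2l2 in having more transcript in the Cre library, at 8.92 FPKM in the Cre library and 5.84 FPKM in the control library, with a log2 ratio of 0.54. Bcl2a1b and Bcl2a1d, survival genes of blood cells, had 1.82 and 0.375 FPKM in the Cre library, against 4.10 and 1.64 FPKM in the control library. These and Bcl2a1a (0.412 FPKM in the Cre library, 0.818 FPKM in the control library) are near-identical copies, so how reads were shared between them is uncertain. Bnip3 and Bnip3l, receptors that mark mitochondria for removal, stood on opposite sides, with 189 FPKM in the Cre library and 156 FPKM in the control library for Bnip3, and 40.5 FPKM in the Cre library and 63.4 FPKM in the control library for Bnip3l. Bcl2l12 had 8.34 FPKM in the Cre library and 11.7 FPKM in the control library, and Bcl2l14 and Bcl2l15, too weak for a ratio, had 0.578 and 0.419 FPKM in the Cre library and 0.513 and 0.517 FPKM in the control library.

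**Figure D3:**
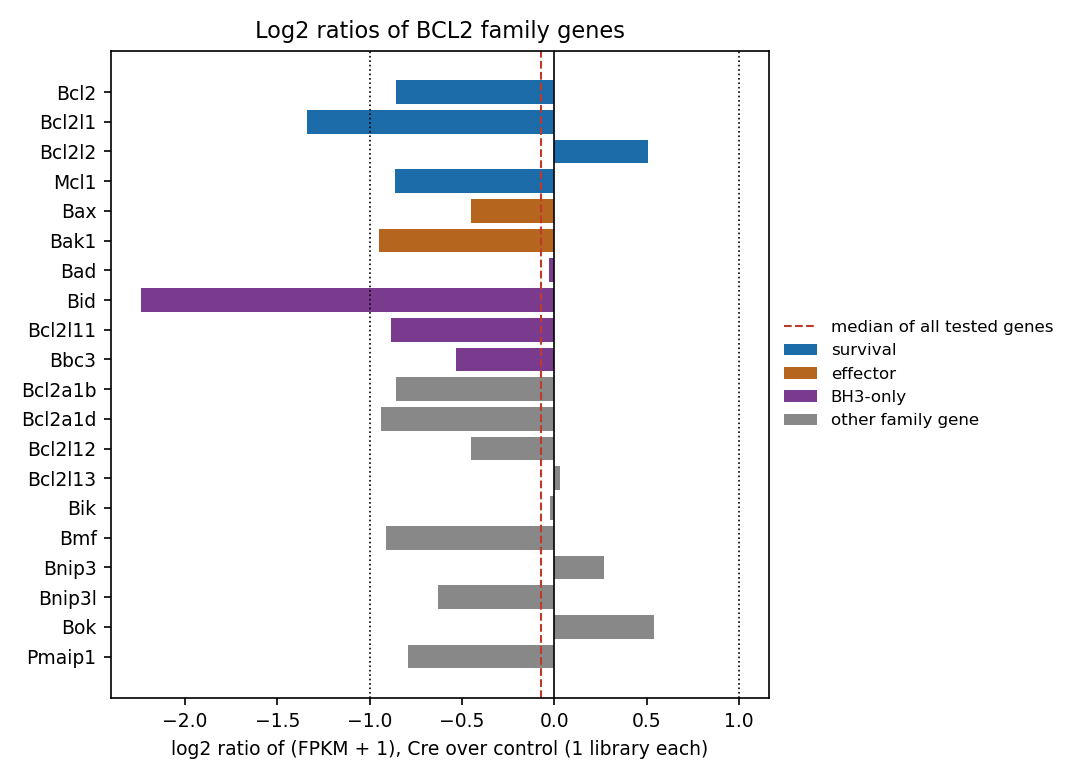
Log2 ratio of (FPKM + 1), Cre over control (horizontal), for the 10 genes and the 10 further family genes that passed the minimum (vertical), 1 library each, coloured by role, with dotted lines at 2-fold and a dashed line at the median of all genes measured (-0.07). Bid and Bcl2l1 pass the lower line, no gene passes the upper one, and Bcl2l2 (0.51) and Bok (0.54) reach furthest to the right.

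Downstream of the mitochondrion, the apoptosome and caspase list had 3 of 9 genes called lower and 0 higher, beside 10.4% and 6.08% of all genes. The list median was -0.72. With the same upper quartile 1 of the 9, and with the centring 6, were called lower, beside 8.02% and 23.9% of all genes. With a pseudocount of 5, 1 was called lower, beside 6.0% of all genes. Casp2, an initiator caspase, had 11.9 FPKM in the Cre library, against 35.3 FPKM in the control library. Casp8, which cuts Bid, had 7.82 FPKM in the Cre library, against 18.9 FPKM in the control library, and Apaf1, the scaffold of the apoptosome, had 3.91 FPKM in the Cre library, against 8.996 FPKM in the control library. Casp9, the initiator that Apaf1 binds, was nearly level at 5.11 FPKM in the Cre library and 4.93 FPKM in the control library, as was Cycs, which encodes cytochrome c, at 461 FPKM in the Cre library and 406 FPKM in the control library.

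Of the inhibitors of apoptosis and their antagonists, 2 of 7 were called lower and 0 higher, beside 10.4% of all genes called lower, with a median of -0.63. The count was 1 (Birc5) with the same upper quartile, 1 with a pseudocount of 5 and 4 with the centring. Those settings called 8.02%, 6.0% and 23.9% of all genes lower. Birc5 (survivin), which also works in cell division, had 2.49 FPKM in the Cre library, against 66.6 FPKM in the control library, with a log2 ratio of -4.27, in the same direction as the cell cycle genes. Birc6, a large ubiquitin ligase, had 10.6 FPKM in the Cre library, against 23.0 FPKM in the control library. Xiap, which blocks Casp9 directly, had 22.9 FPKM in the Cre library and 26.2 FPKM in the control library.

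In the death receptor list 1 of 8 measured genes was called lower and 0 higher, a share near the 10.4% of all genes called lower. The list median of -0.10 turned to 0.09 with the same upper quartile. The called gene was the receptor gene Fas, at 20.8 FPKM in the Cre library, against 43.5 FPKM in the control library. Its log2 ratio of -1.03 was just past the rule. With the same upper quartile or a pseudocount of 5, 0 of 8 were called, beside 8.02% and 6.0% of all genes called lower. With the centring 2 were called lower, beside 23.9% of all genes. Tradd, an adaptor of TNF receptors, had 4.75 FPKM in the Cre library and 8.84 FPKM in the control library.

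Ratios of p53 and its targets lay on both sides of 0, with 7 of 13 genes below 0. In the list of p53 and its targets 2 of 13 were called lower and 0 higher (1 and 1 with the same upper quartile, 1 lower with a pseudocount of 5), a share near the 10.4% of all genes called lower, and the median was -0.02, which turned to 0.15 with the same upper quartile and to 0.01 in TPM. Trp53 had 16.5 FPKM in the Cre library, against 35.3 FPKM in the control library, and Trp53inp1 had 38.5 FPKM in the Cre library, against 209 FPKM in the control library. Cdkn1a, the cell cycle inhibitor that p53 induces, was on the other side at 31.5 FPKM in the Cre library and 16.8 FPKM in the control library, with a log2 ratio of 0.87 that was not called. Bbc3 and Bax, which are also p53 targets, had the ratios of -0.53 and -0.45 given above.

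Among 8 other transcription regulators of BH3-only genes 2 were called lower and 1 higher, beside 10.4% and 6.08% of all genes, with a median of 0.13 that turned to -0.01 with a minimum mean of 5 FPKM and to -0.33 with the fibroblast and endothelial centring. E2f1, a cell cycle factor, had 0.800 FPKM in the Cre library, against 5.12 FPKM in the control library, and Myc had 3.92 FPKM in the Cre library, against 10.1 FPKM in the control library. Trp73, a relative of p53, had 2.10 FPKM in the Cre library, against 0.468 FPKM in the control library. The lower calls were 0 with a pseudocount of 5 and 1 with a minimum mean of 5 FPKM or the same upper quartile, and Trp73 was not called with a pseudocount of 5, that minimum or the centring. Foxo1 and Foxo3, which can switch on Bcl2l11 and Bbc3, had 13.4 and 9.63 FPKM in the Cre library and 9.31 and 7.79 FPKM in the control library, and neither was called.

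Genes for the kinases, adaptors and turnover of BCL2 proteins had 1 of 12 called lower and 0 higher, a share near the 10.4% of all genes called lower. Their median of -0.19 turned to 0.04 with the same upper quartile, where 0 were called, beside 8.02% of all genes called lower. With the centring 3 were called lower, beside 23.9% of all genes. The called gene was Ywhaz, an adaptor that can hold phosphorylated Bad in the cytosol, at 64.0 FPKM in the Cre library, against 134 FPKM in the control library. Pim1, a kinase that can phosphorylate Bad, had 16.2 FPKM in the Cre library and 26.7 FPKM in the control library. The mitochondrial and endoplasmic reticulum partners had 0 of 10 called, beside 10.4% of all genes called lower and 6.08% higher. Their median of 0.16 turned to -0.30 with the centring. With the centring or without a pseudocount, 1 of them was called lower, beside 23.9% and 12.9% of all genes. Itpr2, a calcium release channel, had 9.69 FPKM in the Cre library and 19.5 FPKM in the control library, and Becn1, an autophagy protein that Bcl2 binds, had 40.4 FPKM in the Cre library and 58.7 FPKM in the control library. Vdac2, an outer membrane channel that binds Bak1, had 276 FPKM in the Cre library and 229 FPKM in the control library.

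**Figure D4:**
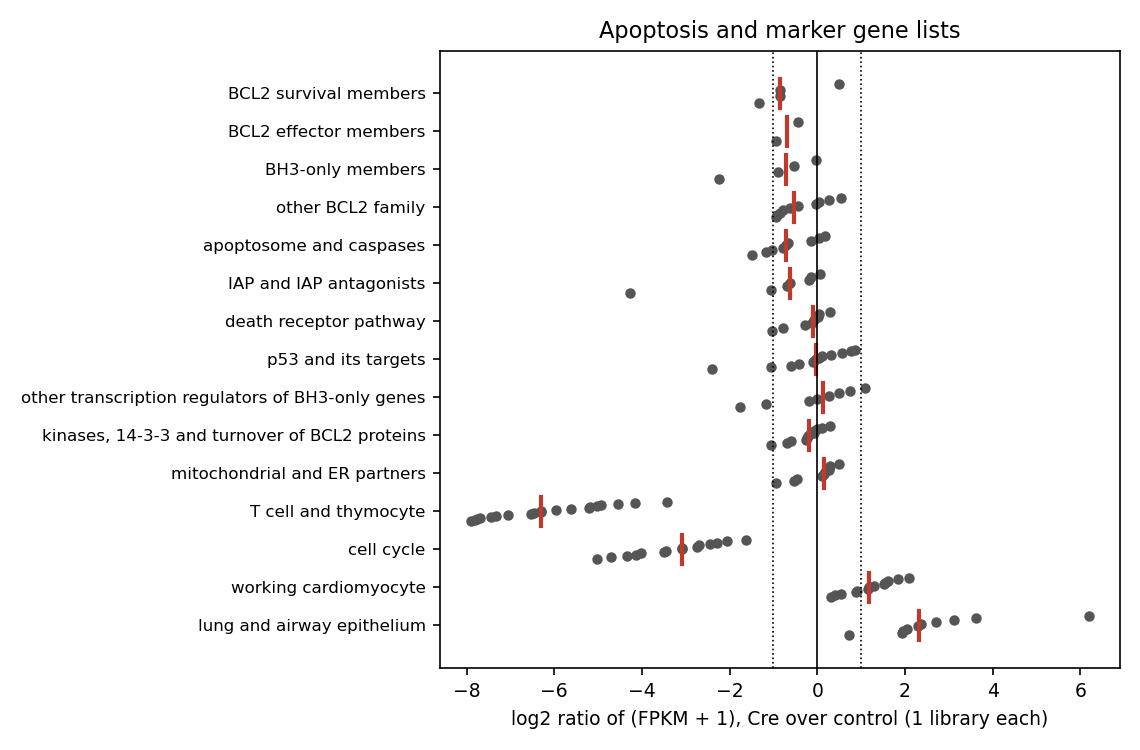
Log2 ratio of (FPKM + 1), Cre over control (horizontal), of each measured gene in the apoptosis lists and in 4 marker lists (vertical), 1 library each, with the list median as a red bar and dotted lines at 2-fold. The BCL2 groups have medians of -0.86, -0.70 and -0.71, beside -6.30 for T cell and thymocyte markers, -3.10 for cell cycle genes, 1.17 for working cardiomyocyte markers and 2.33 for lung and airway markers.

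How far the 10 genes stood from equal expression depended on the scale. With the ratios centred on fibroblast and endothelial markers, which moved every ratio down by 0.46, 6 of the 10 genes were called lower (Bcl2, Bcl2l1, Mcl1, Bak1, Bid and Bcl2l11), where 23.9% of all genes were. With a pseudocount of 0.1, 4 were called lower (Bcl2, Bcl2l1, Bak1 and Bid), beside 12.6% of all genes. Without a pseudocount 5 were called lower (Bcl2, Bcl2l1, Bak1, Bid and Bcl2l11), beside 12.9% of all genes. Bid and Bcl2l1 passed the rule in all 10 settings, with ranges of -2.70 to -1.40 and -1.80 to -1.11. Settings that change only which genes are kept repeat the reported ratio by construction, and every setting uses the same pair of libraries. Bcl2l2 stayed above 0 in all 10 settings, from 0.05 with the centring, where it was nearly level, to 0.73 with the same upper quartile.

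**Figure D5:**
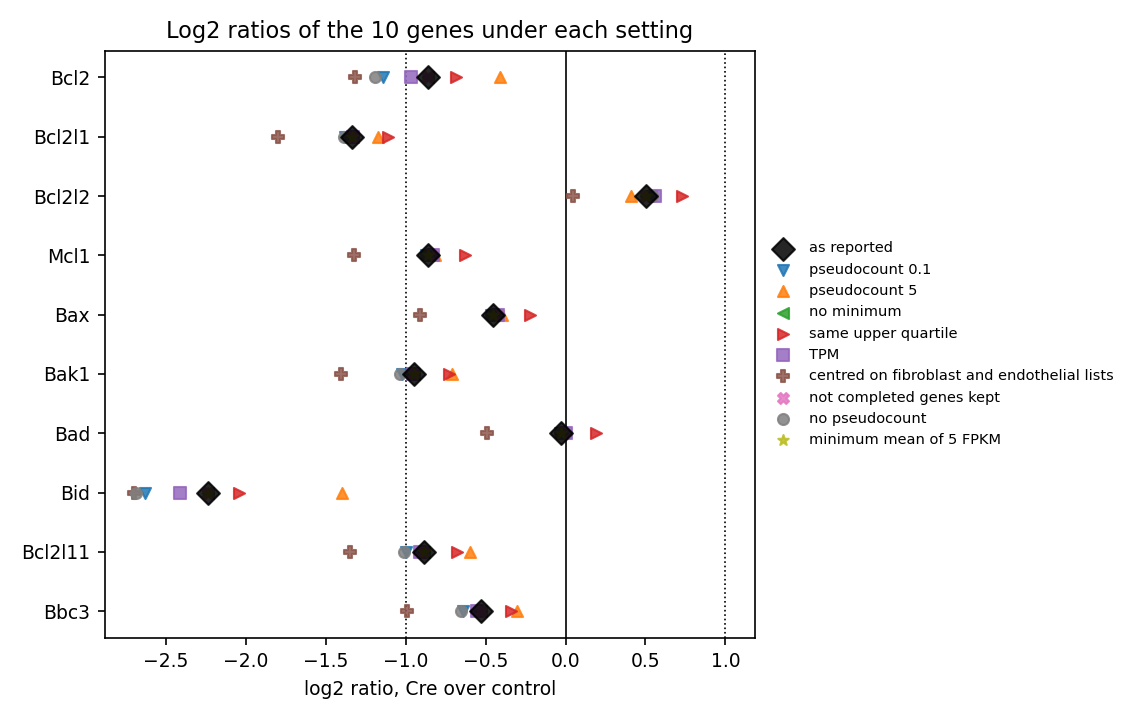
Log2 ratio, Cre over control (horizontal), of the 10 genes (vertical) as reported (black diamonds) and in 9 other settings (coloured marks, some hidden under the diamonds), with dotted lines at 2-fold. Bid and Bcl2l1 lie left of the lower line in every setting shown, Bcl2l2 lies right of 0, and Bad spans 0 from -0.49 to 0.19.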

How the data were processed

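Poly-A RNA was sequenced from the sinoatrial node of mice, per the labels' protocols, and 2 of the 7 samples, 1 per genotype, enter here. The submitters' processing notes name TopHat, Bowtie, Cufflinks and the build mm9. Tool versions, annotation, strand use and scaling are not stated there. No header names the unit of the deposited values, which were taken as FPKM because the columns have the layout of a Cufflinks comparison. Beside them stand the authors' log2 fold change, p-value, q-value and test statistic, a score, and the deposited log2 fold change matched the log2 of the values within 1.38e-05. FPKM is a share of a library, so abundant transcripts of one tissue lower all others.

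Of 15967 rows, 2 with a comparison marked as not completed and 32 small RNA genes were left out. Python 3.11.15 and pandas 2.3.3 gave log2 ratios with a pseudocount of 1 FPKM for genes whose mean reached 1 FPKM, called at 2-fold; the code was tested on simulated data. Gene structures came from GENCODE M21 and start regions from RefSeq, both GRCm38. Named were the 10 genes, the measured genes of the wider family, and in each other list the called genes or the 2 with the largest ratio, with a few added by role after their values were seen; 1 gene of the caspase list is not reported here. The members and lists were chosen with earlier results of these data known. Alternatives were pseudocounts of 0.1, 5 and none (the last added after seeing the data), no minimum or 5 FPKM, the same upper quartile, TPM, centring on fibroblast and endothelial markers, and keeping the rows that were not completed.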

Additional observations from a re-analysis of the deposited data

How the results depend on the processing

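Depth is unknown and there was 1 library per genotype, so values have no error; called means at least 2-fold. No paired analysis was possible because there was 1 library per genotype and no test. Of the 10 genes, 2 were called lower as reported, 4 with a pseudocount of 0.1, 5 without a pseudocount and 6 with the fibroblast and endothelial centring. Those settings called 10.4%, 12.6%, 12.9% and 23.9% of all genes lower, in that order. In every setting run 0 of the 10 genes were called higher, beside 1.78% to 10.1% of all genes. The survival median of -0.86 became -1.01 with a pseudocount of 0.1, -1.03 without one and -1.32 with the centring, under which the effector median was -1.16 (reported as -0.70) and the BH3-only median -1.17 (reported as -0.71). Over all genes 815 were higher and 1396 lower, so that 36.9% of calls were higher. Higher calls numbered 1262 with a pseudocount of 0.1, 1320 without one, 238 with a pseudocount of 5, 449 with a minimum of 5 FPKM, 1352 with the same upper quartile and 291 with the centring. Lower calls numbered 804 with a pseudocount of 5 and 3204 with the centring. The share of higher calls was 55.7% with the same upper quartile, 22.8% with a pseudocount of 5 and 8.33% with the centring. A minimum of 5 FPKM removed Bcl2 and Bbc3. Of the single-gene ratios in the 9 other settings, 77 stayed on their side of 2-fold with their sign, 9 passed it and 2, both of Bad, changed sign. Settings that change only which genes are kept (no minimum, a minimum of 5 FPKM, not completed rows kept) cannot move a ratio. Their part of the 77 was fixed beforehand and is no sign of stability.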
